A study of Drosophila melanogaster with 18 samples.

Results

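The passage from maternal to zygotic RNA was measured in Drosophila melanogaster embryos depleted of maternal E(z), the histone methyltransferase of Polycomb repressive complex 2 (PRC2), by comparing 3 bulk RNA-seq libraries of E(z)-KD embryos at nuclear cycle 14 with 3 libraries of E(z)-KD embryos before cycle 9. These 6 of the 18 libraries of the series were taken by their labels alone. The other 12 are 3 libraries per stage of wild-type (WT) and of CBP-KD embryos. E(z)-KD embryos came from F1 females that carried the female-germline driver matα4-GAL-VP16 and a TRiP shRNA against E(z) inserted at attP2, and that were mated to sibling males. The mothers' germline was depleted, while the embryo's own copies of E(z) could still be transcribed. The F1 females of CBP-KD carried an shRNA against nejire (nej), the gene of the acetyltransferase CBP, made by the study's laboratory. The labels call the controls WT, the study lists a TRiP control line among its stocks, and whether the WT mothers carried the driver is not given in the sources used here. Only 1 shRNA line per factor was used, so effects of the depletion and of the line cannot be told apart. Eggs were laid for 1 h at 25 °C and embryos were staged by hand before whole-embryo RNA was taken. The labels' titles name total RNA, whereas the molecule field names nuclear RNA. Each group has 3 libraries, which the methods call biological replicates.

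Before ZGA (zygotic genome activation) the fly embryo runs on RNAs and proteins that its mother loaded into the egg, and its nuclei divide rapidly in a shared cytoplasm. In cycle 14 the nuclei are enclosed by membranes, the zygotic genome is broadly transcribed, patterning genes are switched on in stripes and domains, and a large share of the maternal RNAs is degraded. PRC2 places the repressive mark H3K27me3, a methylated lysine of histone H3 that is known for keeping Hox and other developmental genes off in cells where they should stay silent.

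The 3 E(z)-KD libraries before cycle 9 held 14745390 to 17946980 estimated counts and the 3 at cycle 14 held 14237654 to 17040490, against 6243486 to 13773744 in WT at cycle 14. All levels below are CPM (a gene's count relative to the total of its library) after TMM scaling, a correction for library composition, and say nothing of absolute amounts. Because a whole embryo was lysed, fewer cells of a type and less RNA per cell cannot be told apart. A gene was called higher or lower when edgeR's quasi-likelihood test gave a Benjamini-Hochberg adjusted p under 0.05 and a log2 fold change of at least 1 in size. Genes of the mother's follicle cells and fat body (16 eggshell and yolk protein genes) summed to 0.134 to 0.753 CPM per E(z)-KD library, and none had enough counts to be tested. Of 10 markers of later embryos, 2 were tested. Of these the neuronal gene elav rose from 0.0565, 0.134 and 0.0553 CPM to 24.1, 29 and 35.9 CPM, and 2 or 3 of the 10 were at 0 counts in each E(z)-KD library at cycle 14. The 10 summed to 25.5 to 37.3 CPM per E(z)-KD library at cycle 14 and to 118 to 139 CPM per WT library. The cause of this difference was not tested.

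Replicate 2 of E(z)-KD differed from the other replicates in some measures. Before cycle 9 it held 76.0 CPM over 432 genes that were silent early in both E(z)-KD and WT (under 1 CPM) and that had at least 5 CPM in WT at cycle 14, against 40.5 and 39.3 CPM in replicates 1 and 3, and 227 of these genes were at 0 counts in it against 286 and 283. At cycle 14, of the 34 rising genes whose coefficient of variation exceeded 30%, 26 were lowest in replicate 2, whereas of all 466 rising genes with at least 5 CPM 224 were lowest in replicate 1, 157 in replicate 2 and 85 in replicate 3. Over all genes the chi-square per gene between early replicates was 3.75 (1 and 2), 4.39 (2 and 3) and 7.41 (1 and 3), so replicate 2 lay between the others, and at cycle 14 it was 13.5, 11.04 and 7.88 for the same pairs. Without replicate 2 of both stages, an alternative chosen after seeing the data, 1377 genes were higher and 2232 lower at cycle 14, close to the 1366 and 2243 found with all 6 libraries.

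The depleted RNA itself was low at both stages. E(z) had 0.0565, 0.269 and 0.221 CPM in the 3 libraries before cycle 9, which are 1, 4 and 4 counts, and 3.51, 5.27 and 5.45 CPM at cycle 14. WT had 103 ± 4.19 CPM before cycle 9 and 33.1 ± 1.39 CPM at cycle 14 (mean ± SD, n = 3, as for all group values below). The E(z)-KD libraries therefore lay below every WT library at both stages. Within E(z)-KD the RNA rose (log2 fold change 4.67, SE 0.45, adjusted p = 5.0e-08), with no overlap between stages, while it fell in WT. An exact two-sided permutation test of E(z) alone gave p = 0.1, the smallest value that 3 against 3 allows.

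Of 8467 genes tested in E(z)-KD, 1366 (16.1%) were higher and 2243 (26.5%) were lower at cycle 14. The replicates of both stages did not overlap for 1325 of the higher and 2241 of the lower genes, but such separation was common, with 4077 of all genes tested (48.2%) above and 3292 (38.9%) below their early values in every library. Of the higher genes 550 had no count in any of the 3 early libraries and 274 had 1 to 3 counts in all. These could be tested only where other libraries held them and could hardly fall further, so their direction was set by the filter. Of the 3441 genes with 10 to 100 CPM before cycle 9, 61 (1.77%) were higher and 1193 (34.7%) lower, and of the 2570 genes with at least 100 CPM, 22 (0.856%) were higher and 849 (33.0%) lower. Among the lower genes 1434 fell at least 4-fold, 380 at least 16-fold and 67 at least 64-fold.

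**Figure D1:**
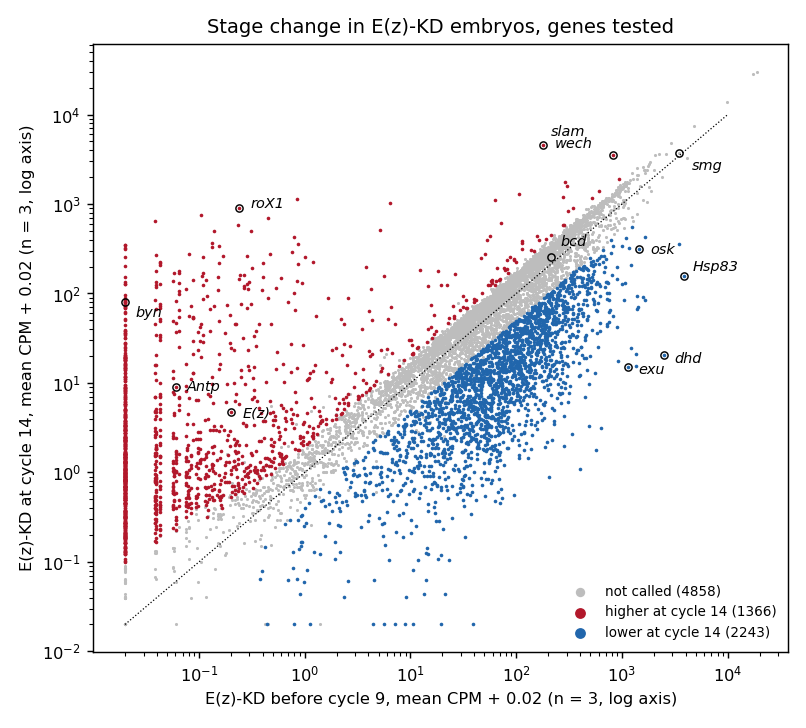
Each point is 1 of the 8467 genes tested, with its mean CPM in 3 E(z)-KD libraries before cycle 9 on the x axis and at cycle 14 on the y axis (0.02 added, both axes logarithmic, dotted line = equal). The 1366 genes higher at cycle 14 (red) lie mostly at the left, near 0 before cycle 9, and the 2243 lower genes (blue) lie mostly above 10 CPM before cycle 9.

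The genes that rose and the genes that fell also differed in structure. A transcript with a single exon was annotated for 22.6% of the annotated higher genes (303 of 1342), 10.2% of the lower genes and 13.2% of all genes tested, and among protein-coding genes alone for 18.2%, 9.995% and 11.4%. The median gene length was 3189 bp for higher, 2715 bp for lower and 2787 bp for all genes tested. The X chromosome held 12.7% of the higher, 18.8% of the lower and 17.4% of all genes tested. These values describe the sets and were not tested.

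The genes with the largest rises included regulators and membrane-forming genes of the cellular blastoderm. roX1 (X:3857230-3862697 in dm6), a noncoding RNA of the dosage compensation complex that binds the male X, had 0.0565, 0.605 and 0 CPM before cycle 9 and 807, 945 and 945 CPM at cycle 14 (log2 fold change 12.09, SE 0.65, adjusted p = 2.3e-11). ppa, an F-box protein gene, went from 0, 0.202 and 0.0553 CPM to 659, 845 and 769 CPM (log2 fold change 13.08, SE 0.49, adjusted p = 2.1e-13). Each early library of both genes was below 1 CPM and each late library was above 600 CPM. Dichaete (D), a Sox-family transcription factor gene, went from 0.169, 0.134 and 0.0553 CPM to 415, 603 and 464 CPM (log2 fold change 11.93, SE 0.56, adjusted p = 4.2e-11). bottleneck (bnk), which times the closing of the cell bases in cellularization, went from 0, 0.874 and 0 CPM to 448, 576 and 479 CPM (log2 fold change 10.88, SE 0.38, adjusted p = 9.6e-14). Of the 13 early counts of bnk all came from replicate 2. Ptr, a Patched-related gene, had 1 count before cycle 9 and 569, 648 and 701 CPM at cycle 14, a ratio of 3.23e+04 (95% counting interval 5789.9 to 1.27e+06). CG14317, whose function is not given in the sources used here, reached 1019, 1278 and 1072 CPM from 0, 2.35 and 0.111 CPM. The neighbouring genes term and CG7271 reached 656, 768 and 667 CPM and 503, 669 and 577 CPM, and 66.7% of the values of each are not whole, so their reads may be shared with other features. CG45087 and Pepck, the gluconeogenic enzyme gene, were at 0 counts in all 3 early libraries and reached 284, 405 and 361 CPM and 285, 389.6 and 358 CPM, at least 1735-fold and at least 1705-fold above the floor of 3 counts per library. Of the values of CG45087 and of Pepck, 50% each are not whole. In WT at cycle 14 they had 48.2 ± 7.22 CPM and 34.4 ± 3.12 CPM, below every E(z)-KD library.

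Genes that were already loaded by the mother and still rose formed a second group. slam, which is needed for the cleavage furrows of cycle 14, went from 186, 184 and 171 CPM to 4139.8, 4990.0 and 4611 CPM (log2 fold change 4.67, SE 0.13, adjusted p = 6.8e-15). kuk, a nuclear envelope gene of the elongating blastoderm nuclei, went from 298, 289 and 286 CPM to 1714, 1882 and 1734 CPM (log2 fold change 2.61, SE 0.05, adjusted p = 1.9e-16). wech rose from 840.0, 818 and 786 CPM to 3433, 3551 and 3583 CPM (log2 fold change 2.11, SE 0.07, adjusted p = 1.1e-13). These 3 genes had at least 100 CPM in every early library and no overlap between stages. Bsg25D, a centrosomal protein gene, rose from 297, 310.4 and 299 CPM to 1565, 1717 and 1529.9 CPM (log2 fold change 2.41, SE 0.07, adjusted p = 7.8e-15). vfl, which encodes the pioneer factor Zelda, went from 908, 916 and 1014 CPM to 1613, 1934 and 2219 CPM (log2 fold change 1.02, SE 0.12, adjusted p = 6.4e-07), a fold change at the edge of the rule that was no longer past it without replicate 1 or 2 before cycle 9 or replicate 3 at cycle 14 (0.99, 0.99 and 0.90). Trl, which encodes GAGA factor, had a log2 fold change of 1.03 (adjusted p = 6.3e-09), but 88.9% of its values are not whole, and it was 0.95 without replicate 2 before cycle 9. nej, the gene of CBP, went from 1065, 1065 and 1157 CPM to 1518, 1575 and 1946 CPM (log2 fold change 0.62, SE 0.14, adjusted p = 4.9e-04) and did not pass the fold rule.

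The segmentation cascade was read from its maternal inputs downward. Gap genes respond directly to maternal gradients and divide the embryo into broad domains. Of the 7 gap genes 6 rose and 1, hunchback (hb), did not pass the fold rule. Beside this, 16.1% of all genes tested rose. Of the 7, 4 had 3 or fewer early counts, so the filter set their direction, as for such members of the other lists. Kruppel (Kr) had 1 count before cycle 9 and 241, 303 and 254 CPM at cycle 14, and giant (gt) had 129, 183 and 143 CPM after 0, 0.336 and 0.0553 CPM. hb, which is also loaded by the mother, went from 445, 449 and 471 CPM to 874, 879 and 858 CPM (log2 fold change 0.94, SE 0.06, adjusted p = 7.1e-10). The early and late values of hb did not overlap. tailless (tll), which shapes both ends of the embryo, went from 0, 0.269 and 0 CPM to 139.7, 194 and 171 CPM (log2 fold change 10.91, SE 0.33, adjusted p = 2.8e-13). The median log2 fold change of the gap list was 10.91, or 9.39 with genes of 3 or fewer early counts set against the floor of 3 counts, beside 0.24 and 0.18 for all genes tested.

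All 7 pair-rule genes, which are expressed in stripes, rose, beside 16.1% of all genes tested. Of the 7, 4 had 3 or fewer early counts. hairy (h) was at 0 counts in the 3 early libraries and had 70.6, 82.1 and 66.9 CPM at cycle 14, at least 363-fold above the floor. runt (run) went from 0, 1.28 and 0 CPM to 67.3, 104 and 98.1 CPM (log2 fold change 7.86, SE 0.44, adjusted p = 4.4e-11), with all of its early counts in replicate 2. fushi tarazu (ftz) went from 0, 0.269 and 0 CPM to 77.8, 96.6 and 88.5 CPM (log2 fold change 9.97, SE 0.54, adjusted p = 2.2e-10). odd-paired (opa), a pair-rule gene that acts late, went from 0.226, 0.0672 and 0 CPM to 125, 139 and 158 CPM (log2 fold change 10.36, SE 0.72, adjusted p = 7.6e-10). WT at cycle 14 had 546 ± 25.2 CPM of opa and 188 ± 10.4 CPM of h. For each of the 7 pair-rule genes the E(z)-KD mean at cycle 14 was below the WT mean, with a median ratio of 0.472. Of the 7 gap genes the E(z)-KD mean was below the WT mean for 5, with a median ratio of 0.847.

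Segment polarity genes fix the borders between segments. Of the 10 listed, 8 were tested and all 8 rose, beside 16.1% of all genes tested. Their median log2 fold change was 7.52, or 3.75 against the floor. Of the 8, 7 had 3 or fewer early counts, so their direction was set by the filter. patched (ptc), the Hedgehog receptor, went from 1.19, 1.28 and 1.05 CPM to 201, 216 and 253 CPM (log2 fold change 7.57, SE 0.40, adjusted p = 2.4e-11). wingless (wg), a Wnt ligand, was at 0 counts before cycle 9 and had 18.2, 12.3 and 17 CPM at cycle 14, at least 78.5-fold above the floor. hedgehog (hh) reached 2.0, 0.695 and 2.9 CPM and engrailed (en) reached 1.5, 0.927 and 1.98 CPM, also from 0 counts. Of wg, hh and en the lowest of the 3 late libraries was replicate 2.

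Hox genes, which give segments their identity and are classical targets of Polycomb repression, rose from nothing but stayed low. Of the 8 Hox genes 6 were tested and all 6 rose, beside 16.1% of all genes tested. Of the 6, 5 had 3 or fewer early counts, so their direction was set by the filter. Antennapedia (Antp) had 2 counts before cycle 9 and 11, 5.56 and 10.1 CPM at cycle 14, a ratio of 221 (95% counting interval 60.9 to 1834). Deformed (Dfd) went from 0 counts to 3.44, 2.72 and 4.04 CPM, Ultrabithorax (Ubx) from 0 counts to 1.69, 0.927 and 2.2 CPM and abdominal-A (abd-A) from 0 counts to 2.69, 1.39 and 2.05 CPM. Abdominal-B (Abd-B) was the exception among them in having more than 3 early counts, with 0.113, 0.538 and 0.277 CPM before cycle 9 and 3.26, 2.37 and 4.46 CPM at cycle 14 (log2 fold change 3.44, SE 0.59, adjusted p = 7.4e-05). WT had 40.7 ± 7.7, 18.5 ± 2.52, 10.4 ± 1.85, 12.2 ± 3.86 and 4.95 ± 1.05 CPM of these 5 genes at cycle 14, and 0 counts of Abd-B before cycle 9. The summed level of the 8 Hox genes was 23.9, 13.7 and 25.7 CPM in the 3 E(z)-KD libraries at cycle 14 and 79.2 to 111 CPM in WT, so that every E(z)-KD library was below every WT library. Replicate 2 was the lowest in the Hox sum, whereas its sums of gap and pair-rule genes were the highest of the 3 (1844 and 610 CPM, against 1600 and 1665, and 497 and 587 CPM). The exact time of each library within cycle 14 is not given in the labels, and its part in these differences was not tested.

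**Figure D2:**
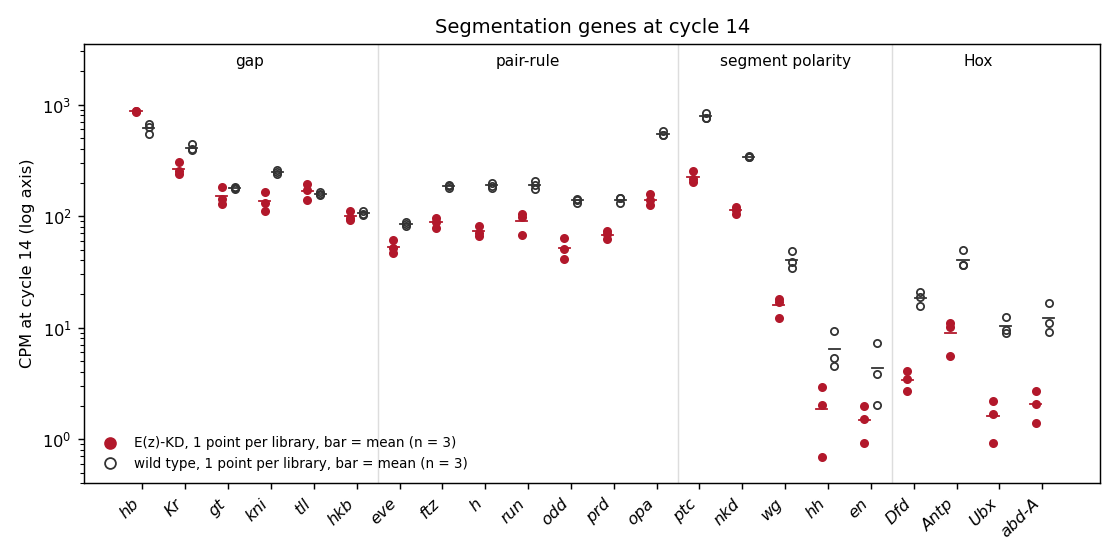
CPM at cycle 14 on a logarithmic axis for 22 segmentation genes, with 1 point per library (filled red for E(z)-KD, open for wild type, 3 libraries each) and a bar at the mean. For the gap genes gt, tll and hkb the points of both genotypes lie close together, whereas for the pair-rule genes, segment polarity genes and Hox genes shown the E(z)-KD means lie below the wild-type means.

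Genes that subdivide the embryo from back to belly rose as well. Of 12 mesoderm and ventral furrow genes 7 were higher and 3 lower, beside 16.1% and 26.5% of all genes tested. Of the 12, 4 had 3 or fewer early counts. The mesoderm selectors twist (twi) and snail (sna) reached 113, 145 and 125 CPM and 119, 150.2 and 136 CPM, from 1 count in all for twi and 0, 0.672 and 0.166 CPM for sna. heartless (htl), the FGF receptor of the mesoderm, went from 0.791, 1.48 and 0.885 CPM to 12.8, 7.7 and 12.8 CPM (log2 fold change 3.41, SE 0.49, adjusted p = 7.6e-06). The lower members were Mef2, zfh1 and T48, which the mother had loaded. T48, which helps cells constrict their tops at the furrow, went from 52.3, 53.1 and 52.7 CPM to 14.5, 12.5 and 11.2 CPM (log2 fold change -2.05, SE 0.13, adjusted p = 3.8e-10). All 11 neurogenic ectoderm genes rose, 7 of them from 3 or fewer early counts. Among them short gastrulation (sog), the BMP antagonist, had 3 counts before cycle 9 and 246, 288 and 285 CPM at cycle 14, and vnd, a neural homeobox gene, had 3.22, 4.64 and 4.98 CPM before cycle 9 and 41.5, 56.1 and 54.6 CPM at cycle 14 (log2 fold change 3.57, SE 0.22, adjusted p = 1.5e-10).

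Of 14 dorsal ectoderm and amnioserosa genes tested, 13 rose and ush fell, beside 16.1% and 26.5% of all genes tested. Of the 14, 6 had 3 or fewer early counts. decapentaplegic (dpp), the BMP ligand of the dorsal side, had 1 early count and 66.3, 79.4 and 69.1 CPM at cycle 14. zerknullt (zen), a homeobox gene that marks the amnioserosa, went from 0.169, 0.807 and 0.166 CPM to 141, 171 and 152 CPM (log2 fold change 8.73, SE 0.29, adjusted p = 4.1e-14). ush, a cofactor of GATA factors, went from 27.8, 28.3 and 24.2 CPM to 14.8, 4.29 and 15.1 CPM (log2 fold change -1.24, SE 0.32, adjusted p = 0.0017), and its late value in replicate 2 was the lowest. Without that library the log2 fold change of ush was -0.83 and the call was lost. All 9 endoderm and hindgut genes rose, 7 of them from 3 or fewer early counts. brachyenteron (byn), the fly Brachyury, and fork head (fkh) were at 0 counts before cycle 9 and had 74.6, 81.8 and 82.8 CPM and 51.3, 64.2 and 66.4 CPM at cycle 14. Ptx1, a homeobox gene of the endoderm, went from 0 counts to 13, 15.5 and 18.2 CPM, at least 77.2-fold above the floor, and had 2.55 ± 0.375 CPM in WT at cycle 14, below every E(z)-KD library.

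The study's own markers of germ layers gave 41 of 52 genes higher and 6 lower in E(z)-KD, beside 16.1% and 26.5% of all genes tested. Their median log2 fold change was 7.26, or 5.11 against the floor. As the study used these markers to annotate cycle 14 embryos, their direction is not independent evidence. The 6 lower markers were Mes2, zfh1, ken, ush, cnc and bbg, with mean levels before cycle 9 between 26.8 CPM (ush) and 395 CPM (cnc). ken, a transcriptional repressor gene, went from 75.6, 72.2 and 78 CPM to 6.83, 4.34 and 5.03 CPM (log2 fold change -3.80, SE 0.12, adjusted p = 3.0e-14).

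Genes that build the first cells rose in E(z)-KD. All 6 listed cellularization genes rose (median log2 fold change 7.65), beside 16.1% of all genes tested. Before cycle 9 the 6 summed to 463 to 490 CPM per E(z)-KD library, so they include RNAs that the mother had loaded. At cycle 14 the E(z)-KD mean was below the WT mean for 4 of the 6. None was called higher or lower than WT, beside 11.3% and 13% of all genes tested. nullo, which stabilizes the furrow canals, went from 0, 1.55 and 0 CPM to 102, 133 and 111 CPM (log2 fold change 7.95, SE 0.43, adjusted p = 2.7e-11), and WT had 59.3 ± 9.63 CPM at cycle 14. Sry-alpha went from 6.44, 7.13 and 5.59 CPM to 933, 1124 and 1044 CPM (log2 fold change 7.34, SE 0.20, adjusted p = 6.1e-15). halo, which steers lipid droplet transport, went from 0, 0.336 and 0 CPM to 317, 441 and 348 CPM (log2 fold change 11.75, SE 0.45, adjusted p = 3.7e-12). The early counts of nullo and halo lay in replicate 2 alone.

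Of the 8 genes that count X chromosomes or act with that count in sex determination 6 rose and 1 fell. The shares over all genes tested were 16.1% and 26.5%. At cycle 14 the E(z)-KD mean was below the WT mean for 6 of the 8, with 2 called lower than WT and 0 higher. In that comparison 13% of all genes tested were lower and 11.3% higher. sisterless A (sisA) went from 0, 0.336 and 0.0553 CPM to 111, 95.5 and 124 CPM (log2 fold change 9.76, SE 0.58, adjusted p = 8.8e-11), and WT had 67.6 ± 10.9 CPM at cycle 14. daughterless (da), a maternal partner of these proteins, went from 302, 299.9 and 322 CPM to 109, 117 and 116 CPM (log2 fold change -1.44, SE 0.08, adjusted p = 3.0e-11). Sex-lethal (Sxl), the target of the signal, had 275, 264 and 274 CPM before and 402, 384 and 503 CPM at cycle 14 (log2 fold change 0.66, SE 0.13, adjusted p = 1.8e-04), under the fold rule. Of the dosage compensation genes msl-2 rose from 6.33, 5.31 and 5.2 CPM to 148, 173 and 153 CPM (log2 fold change 4.81, SE 0.13, adjusted p = 5.5e-15). All 6 tested genes of the Bearded family, inhibitors of Notch ligand uptake, rose, led by Tom with 97.1, 80.1 and 107 CPM at cycle 14 after 0, 0.134 and 0.166 CPM. Of these 6, 5 had 3 or fewer early counts.

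Cell cycle genes of the cycle 14 pause moved in both directions. frühstart, listed here as Z600, inhibits mitosis and went from 0 counts to 64.3, 107 and 63.1 CPM, at least 388-fold above the floor. tribbles (trbl), which promotes loss of String protein, went from 50.8, 52 and 54.6 CPM to 357, 444 and 399 CPM (log2 fold change 2.93, SE 0.12, adjusted p = 9.1e-13). The checkpoint kinase genes grp, lok and mei-41 fell, with log2 fold changes of -1.67, -1.61 and -3.57, and 94.4% of the values of grp are not whole. The 2 Cdc25 phosphatase genes, string (stg) and twine (twe), did not pass the rule. stg went from 558, 569.6 and 592 CPM to 315, 304 and 308 CPM (log2 fold change -0.89, SE 0.08, adjusted p = 2.2e-08) and twe from 180.4, 172 and 159.9 CPM to 218, 227 and 224 CPM (log2 fold change 0.39, SE 0.08, adjusted p = 3.6e-04). In WT stg went from 523 ± 13.6 CPM to 129 ± 14.6 CPM and twe from 192 ± 3.18 CPM to 121 ± 14.8 CPM. Of 11 genes of mitotic cyclins, the Pan Gu kinase and meiotic exit, 4 fell in E(z)-KD (png, gnu, cort and mtrm) and 0 rose, against 5 and 0 in WT. Of all genes tested in E(z)-KD 26.5% fell.

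**Figure D3:**
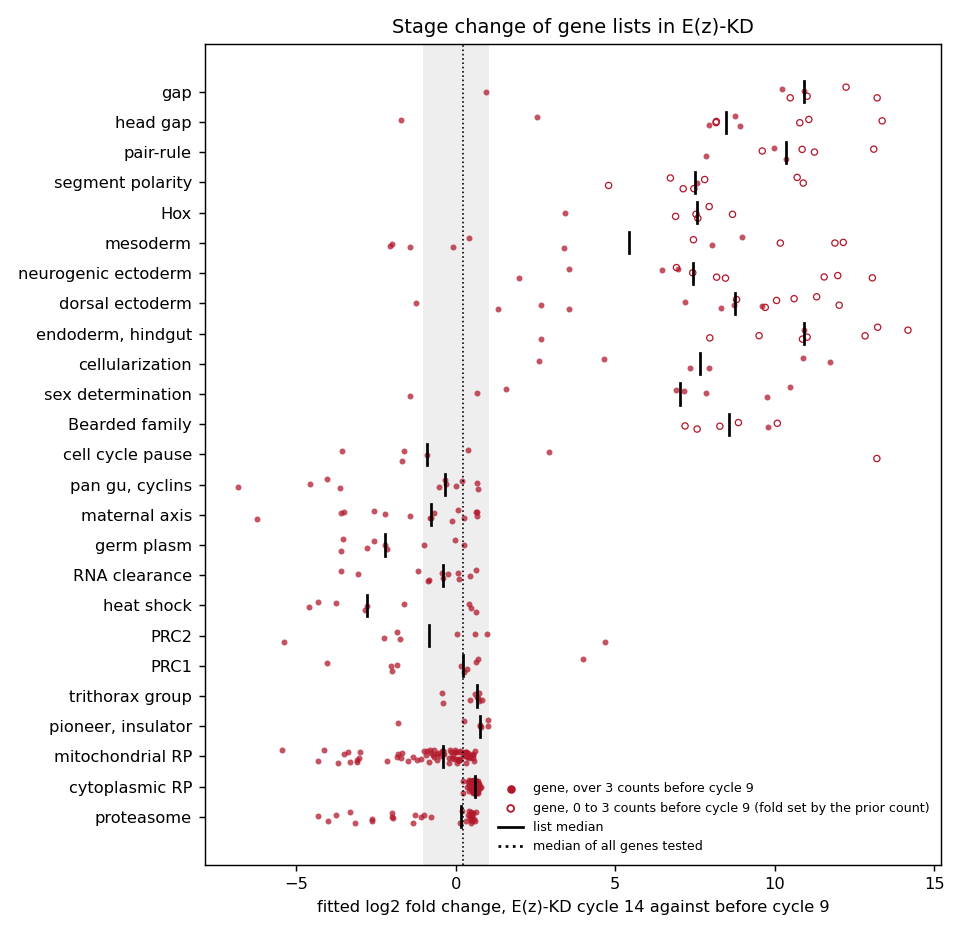
Fitted log2 fold change of cycle 14 against before cycle 9 in E(z)-KD for each tested gene of 25 lists (filled points, more than 3 counts before cycle 9; open points, 0 to 3 counts, whose fold depends on the prior count of the fit), with the list median as a bar, the median of all genes as a dotted line and the range from -1 to 1 shaded. Patterning and cellularization lists have medians to the right of the shaded range, although members such as hb, T48 and ush do not lie there, and germ plasm and heat shock lists have medians to its left.

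Genes with the largest falls included several that act in the female germline. dhd (X:5312171-5313125), the germline thioredoxin that helps remodel sperm chromatin, went from 2523, 2495 and 2451 CPM to 19.7, 23.7 and 17.5 CPM (log2 fold change -6.93, SE 0.11, adjusted p = 1.4e-17). exuperantia (exu), which is needed to localize bicoid RNA, went from 1132, 1125 and 1129.7 CPM to 14.4, 15.8 and 15.1 CPM (log2 fold change -6.22, SE 0.08, adjusted p = 8.8e-19). For both genes every late value was far below every early value. GstD1, a glutathione transferase gene, went from 502, 486 and 479 CPM to 3.01, 3.59 and 3.19 CPM (log2 fold change -7.22, SE 0.09, adjusted p = 8.3e-19). The mitochondrial aminotransferase gene Got2, the cytochrome P450 gene Cyp6a19 and the genes CG8180, CG4476 and CG10960 also fell, with log2 fold changes of -6.98, -8.54, -7.62, -7.86 and -7.14. BicC and CG45084, which occupy the same span on chromosome 2L, went from 569.8, 590.3 and 536 and 1457, 1312 and 1257 CPM to 0, 5.27 and 0 and 21.4, 8.75 and 16.2 CPM. Their counts cannot be separated with confidence, as 72.2% of the values of each are not whole.

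Abundant maternal RNAs fell too. Hsp83, the fly Hsp90 and a well-studied target of maternal RNA decay, went from 3854, 3798 and 3818 CPM to 168, 173 and 129 CPM (log2 fold change -4.61, SE 0.15, adjusted p = 5.8e-14). yl, the yolk protein receptor, went from 3429, 3415 and 3456 CPM to 362, 341 and 366 CPM (log2 fold change -3.27, SE 0.14, adjusted p = 9.4e-13). aret, which encodes the translational repressor Bruno, went from 1676, 1609.8 and 1613 CPM to 95.3, 78.1 and 77.5 CPM (log2 fold change -4.29, SE 0.16, adjusted p = 1.5e-13). In none of these did the stages overlap. Enolase (Eno) went from 1673, 1675 and 1653 CPM to 418, 453 and 417 CPM (log2 fold change -1.96, SE 0.08, adjusted p = 1.2e-12).

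Maternal RNAs of the embryonic axes did not fall as a block. Of 15 such genes 6 fell, 0 rose and 9 did not pass the rule (median log2 fold change -0.78), beside 26.5% of all genes tested that fell. nanos (nos), the posterior determinant, went from 1066, 1015 and 1022 CPM to 92.7, 91.7 and 71.5 CPM (log2 fold change -3.60, SE 0.10, adjusted p = 4.9e-15). oskar (osk), which assembles the germ plasm, went from 1466, 1455 and 1447 CPM to 332, 305 and 307 CPM (log2 fold change -2.21, SE 0.08, adjusted p = 7.0e-14). bicoid (bcd), the anterior determinant, had 210.2, 212 and 218 CPM before cycle 9 and 253, 265 and 249 CPM at cycle 14 (log2 fold change 0.26, SE 0.09, adjusted p = 0.012), so that all late values were above all early ones without passing the fold rule. The ligand spätzle (spz) and its effector dorsal (dl), which set up the belly side, fell, with log2 fold changes of -1.45 and -3.49. Toll (Tl), the receptor between them, went from 892, 874 and 795 CPM to 1389, 1273 and 1348 CPM (log2 fold change 0.65, SE 0.06, adjusted p = 7.9e-08).

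Of 9 germ plasm genes 7 fell and 0 rose, with the same counts in WT. Of all genes tested in E(z)-KD 26.5% fell. vasa (vas), an RNA helicase of the germline, went from 208, 184 and 179 CPM to 16.6, 17.1 and 15.6 CPM (log2 fold change -3.53, SE 0.07, adjusted p = 3.2e-16), and tudor (tud) from 718, 704 and 651 CPM to 137, 94.9 and 119.5 CPM (log2 fold change -2.56, SE 0.13, adjusted p = 1.1e-11). gcl, which is needed to form the pole cells, was just past the fold rule (log2 fold change -1.0, SE 0.06, adjusted p = 2.6e-10), a call lost (-0.90) under median-of-ratios scaling and without replicate 1 before cycle 9 or replicate 2 or 3 at cycle 14, and aub and vls did not pass it. Of 12 factors that clear or repress maternal RNAs 3 fell (nos, orb and bel), a share close to the 26.5% of all genes tested. smaug (smg), the main RNA-binding protein of maternal RNA decay, had 3495, 3501 and 3456 CPM before cycle 9 and 3856, 3406 and 3752 CPM at cycle 14 (log2 fold change 0.08, SE 0.08, adjusted p = 0.41), and the values of the 2 stages overlapped. In WT it went from 3441 ± 216 CPM to 1546 ± 217 CPM.

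Other groups also held genes that fell. Of 9 heat shock and chaperone genes 6 fell and 3 (Hsp22, Hsp23 and Hsc70-4) did not pass the rule, and 6 fell in WT too. Of all genes tested in E(z)-KD 26.5% fell. Of 32 proteasome genes 13 fell and 0 rose, with the same counts in WT. All 13 that fell in E(z)-KD encode subunits of the regulatory particle (Rpn and Rpt genes). Rpn11, the deubiquitinase of that particle, went from 234, 219 and 229.5 CPM to 11.2, 12.2 and 11 CPM (log2 fold change -4.31, SE 0.12, adjusted p = 5.0e-15), whereas the core subunit gene Prosalpha4 went from 178, 187 and 197 CPM to 258, 302 and 295 CPM (log2 fold change 0.60, SE 0.06, adjusted p = 1.3e-07). Of 73 genes of mitochondrial ribosomal proteins 20 fell and 0 rose, again a share of lower genes close to the 26.5% of all genes. mRpL38 went from 63.9, 62.6 and 67.8 CPM to 1.38, 1.91 and 1.13 CPM (log2 fold change -5.43, SE 0.20, adjusted p = 1.4e-13), and mRpS9 from 50.0, 50.9 and 53.7 CPM to 74.1, 79.2 and 75.9 CPM (log2 fold change 0.57, SE 0.05, adjusted p = 8.7e-09). None of 85 tested cytoplasmic ribosomal protein genes was called, and their median log2 fold change was 0.60.

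PRC2 and its relatives changed member by member. Of 8 PRC2 genes 1, E(z), rose and 4 fell, and in WT also 1 of the 8 rose and 4 fell. Of all genes tested in E(z)-KD 16.1% rose and 26.5% fell. esc, the subunit that binds the methyl mark, went from 106, 102 and 99 CPM to 29.1, 29.1 and 27.4 CPM (log2 fold change -1.84, SE 0.08, adjusted p = 2.3e-12), Su(z)12 from 217, 221 and 223 CPM to 59.2, 70.6 and 66.9 CPM (log2 fold change -1.75, SE 0.08, adjusted p = 1.6e-12) and Pcl from 465, 465 and 461 CPM to 98.4, 102 and 92.6 CPM (log2 fold change -2.25, SE 0.08, adjusted p = 7.8e-14). The fourth, escl, had a log2 fold change of -5.37, but none of its values is whole. Of 10 PRC1 and PhoRC genes 1 rose and 4 (Pc, Su(z)2, Scm and phol) fell, against 1 and 3 in WT. Polycomb (Pc), which binds methylated H3, went from 137, 131 and 138 CPM to 31.7, 36.1 and 31.8 CPM (log2 fold change -2.03, SE 0.10, adjusted p = 5.6e-12). The riser was ph-p, with 4.29, 3.97 and 3.82 CPM before and 56.9, 60.6 and 74.8 CPM at cycle 14 (log2 fold change 3.99, SE 0.17, adjusted p = 9.4e-13). Reads of ph-p may be shared with its neighbour ph-d, as 94.4% of the values of each are not whole. None of 9 trithorax group genes was called, and trx itself went from 532, 540.3 and 502 CPM to 425, 343 and 411 CPM (log2 fold change -0.42, SE 0.09, adjusted p = 3.4e-04).

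WT embryos over the same 2 stages had 1779 genes (21%) higher and 2526 (29.8%) lower. Of the 1366 genes higher in E(z)-KD, 1275 were also higher in WT, which are 93.3% of the E(z)-KD and 71.7% of the WT genes. Of the 2243 lower genes 2004 were also lower in WT, or 89.3% and 79.3%. With median-of-ratios scaling in DESeq2 the WT counts were 2414 and 2236, as it shifts the median log2 fold change of all genes by 0.25 in WT and by 0.10 in E(z)-KD. Only 3 of the higher and 12 of the lower genes were called in the opposite direction in WT. Of the 1366 higher genes, 824 had 3 or fewer early counts in E(z)-KD. Their direction there was set by the filter, so their agreement with WT is no independent result. A call in 1 genotype alone does not show a difference. The difference itself, E(z)-KD stage change minus WT stage change, was higher for 559 genes (6.6%) and lower for 686 (8.1%). Under the DESeq2 scaling these counts were 432 and 876, which moves the share of higher calls from 44.9% to 33.0% and shifts the median difference over all genes by -0.15.

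Genes silent early reached lower levels in E(z)-KD than in WT at cycle 14. Of the 432 silent zygotic genes defined above 431 were tested, and of these 426 rose in E(z)-KD. Their cycle 14 level in E(z)-KD was 0.386 times that in WT in the median (quartiles 0.258 and 0.598), and 0.382, 0.389 and 0.406 times in replicates 1, 2 and 3. The E(z)-KD mean was below the WT mean for 393 of 432. The WT level was used to choose the set, which pushes this ratio down. In the reverse choice 307 genes reached 5 CPM in E(z)-KD, and 25 of these were under 5 CPM in WT. All genes under 1 CPM before cycle 9 in a genotype supplied 2.49%, 2.82% and 2.64% of the counts of the 3 E(z)-KD libraries at cycle 14 (2.65% ± 0.17), against 5.22% ± 0.14 in WT. The genes were chosen in each genotype by its own early libraries, so the shares cover different genes. Over the 9689 genes under 1 CPM in both genotypes, a set added after the values had been seen, the shares were 2.58% ± 0.16 and 4.91% ± 0.13. With either choice the groups did not overlap (exact permutation test, two-sided, p = 0.1, the smallest possible). Median ratios of E(z)-KD to WT at cycle 14 by list were 0.847 for gap, 0.772 for cellularization, 0.597 for endoderm and hindgut, 0.472 for pair-rule, 0.333 for segment polarity and 0.201 for Hox genes.

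The decline of maternal RNA also differed between E(z)-KD and WT for some genes. osk kept 21.6% ± 1.02 of its early CPM in E(z)-KD and 4.24% ± 0.253 in WT, a difference of log2 fold changes of 2.34, SE 0.11, adjusted p = 4.0e-10. smg kept 105% ± 6.76 and 44.9% ± 6.3 (difference 1.23, SE 0.12, adjusted p = 6.4e-07), and bcd kept 119.9% ± 3.75 and 45.9% ± 8.17 (difference 1.37, SE 0.13, adjusted p = 4.3e-07). For all 3 every E(z)-KD library lay above every WT library. spz kept 36.7% ± 2.27 in E(z)-KD and 7.15% ± 0.651 in WT (difference 2.34, SE 0.15, adjusted p = 1.2e-08). Of the listed maternal axis genes 5 of 15 (bcd, osk, dl, spz and swa) had a higher stage change in E(z)-KD and 0 a lower one, as did 3 of 9 germ plasm genes (gcl, osk and vas) and 3 of 12 clearance factors (smg, cup and orb). None of the values of cup is whole, so its reads may be shared with other features. The 6.6% of all genes with a higher stage change includes genes that did not fall in WT, so nothing particular to these lists is read from their counts. By contrast nos kept 8.25% ± 1.16 and 7.16% ± 0.467, and exu kept 1.34% ± 0.0624 and 2.12% ± 0.0652. Between E(z)-KD and CBP-KD the stage change was called different for 0 of the 15, 0 of the 9 and 0 of the 12 genes. At cycle 14 the clearance list summed to 12211 to 13128 CPM in E(z)-KD, 11623 to 12862 CPM in CBP-KD and 6944 to 8393 CPM in WT. The higher levels than in WT are therefore not read as particular to E(z)-KD.

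**Figure D4:**
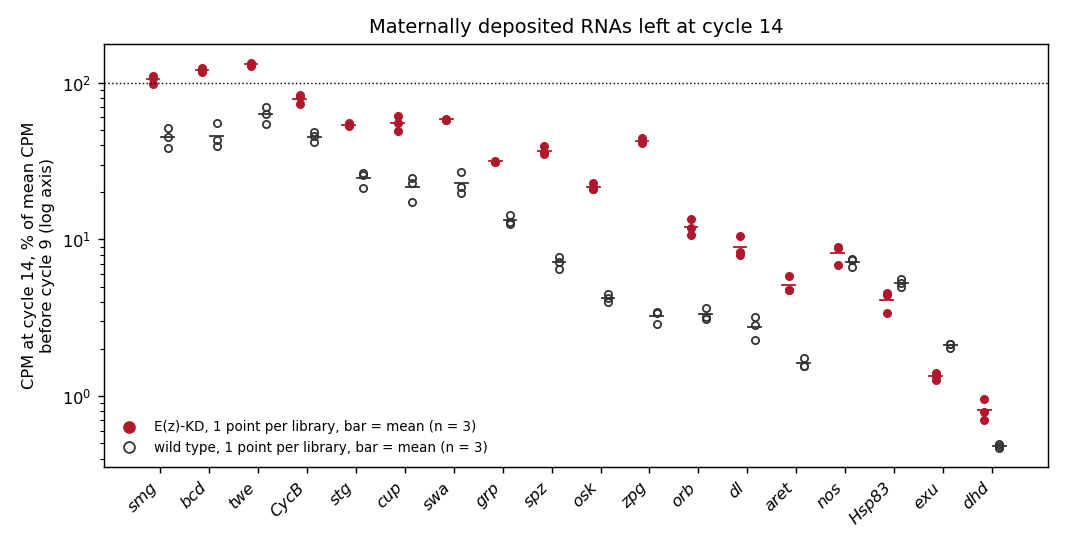
CPM at cycle 14 as a percentage of the genotype's mean CPM before cycle 9 (logarithmic axis) for 18 maternally loaded RNAs, with 1 point per library (filled red for E(z)-KD, open for wild type) and a bar at the mean. smg, bcd and twe lie near or above 100% in E(z)-KD and below it in wild type, whereas the means of the genotypes lie closer for nos, Hsp83 and exu.

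The largest differences from WT were of 2 kinds. In the first, an RNA persisted or rose in E(z)-KD. zpg, a germline gap junction gene, went from 267, 263 and 251 CPM to 108, 114.6 and 107 CPM in E(z)-KD and from 294 ± 9.2 CPM to 9.55 ± 0.896 CPM in WT (difference 3.72, SE 0.09, adjusted p = 2.7e-13). Thor, the translation repressor 4E-BP, went from 3.39, 2.42 and 4.48 CPM to 28, 52.1 and 38.8 CPM and in WT from 2.56 ± 0.232 CPM to 2.27 ± 1.32 CPM (difference 3.77, SE 0.50, adjusted p = 1.5e-05). Uch, a ubiquitin hydrolase gene, kept 17.9, 19.1 and 14.7 CPM at cycle 14 of 109, 106 and 119 CPM before, against 2.16 ± 0.642 CPM in WT (difference 3.11, SE 0.18, adjusted p = 2.9e-09). mus312, CG42455, CG6567, CG5568 and CG33156 completed the 8 largest, and of these only the values of CG6567 are all whole.

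In the second kind, an RNA that WT embryos had little of before cycle 9 was already higher in E(z)-KD. l(3)neo38 had 96.1, 93.2 and 107 CPM before cycle 9 and 221, 217 and 229 CPM at cycle 14 in E(z)-KD, while WT went from 2.83 ± 0.287 CPM to 593 ± 12 CPM (difference -6.54, SE 0.34, adjusted p = 1.2e-09). CG42342 had 124, 129.6 and 165 CPM and 138, 139 and 163 CPM in E(z)-KD, and 0.135 ± 0.029 CPM and 18.4 ± 2.27 CPM in WT (difference -6.91, SE 0.63, adjusted p = 3.4e-07). Its E(z)-KD values overlapped between stages. The integrin gene scab (scb) went from 10.6, 11.8 and 10.02 CPM to 18.5, 12.2 and 15.8 CPM, and in WT from 0.157 ± 0.0766 CPM to 30.8 ± 2.17 CPM (difference -7.04, SE 0.64, adjusted p = 3.1e-07). slit (sli), the axon guidance ligand, had 53.9, 61 and 55.6 CPM before cycle 9 against 7.39 ± 0.548 CPM in WT (difference of stage changes -4.10, SE 0.30, adjusted p = 3.2e-08). CG3036, CG32783, btsz and the cytochrome P450 gene Cyp6a20 completed the 8 largest in this direction, and 88.9% of the values of CG32783 are not whole. Over all genes, a comparison of E(z)-KD with WT before cycle 9, added after these values were seen, called 630 genes (7.44%) higher and 178 (2.1%) lower in E(z)-KD. At cycle 14 the same added comparison called 956 genes (11.3%) higher and 1099 (13%) lower. By these calls, 261 (38.0%) of the 686 genes with a lower stage change than WT were higher in E(z)-KD before cycle 9. At cycle 14, 403 (58.7%) of the 686 were lower than in WT. The pattern of the 8 largest is thus not that of most genes in this direction. These calls share libraries with the difference itself. Some listed patterning genes were also higher in E(z)-KD before cycle 9. vnd had 4.28 ± 0.934 CPM in E(z)-KD and 0.0186 ± 0.0323 CPM in WT before cycle 9, htl had 1.05 ± 0.373 CPM and 0.0373 ± 0.0645 CPM, and Doc3 had 1.1 ± 0.512 CPM and 0.0204 ± 0.0354 CPM.

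**Figure D5:**
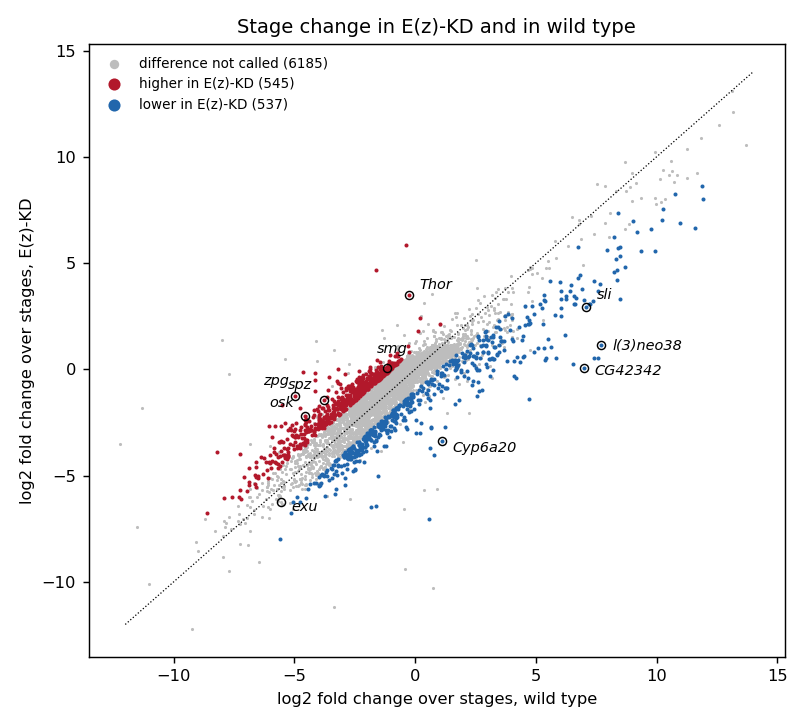
Log2 fold change over the stages in wild type (x axis) and E(z)-KD (y axis) for 7267 genes with more than 3 counts before cycle 9 in both genotypes, with the dotted line at equal change. Red points are the 545 plotted genes with a higher stage change in E(z)-KD and blue points the 537 with a lower one. zpg and Thor lie above the line and l(3)neo38, CG42342 and Cyp6a20 below it.

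CBP-KD embryos were depleted of the acetyltransferase that acts on the same histone residue. Their nej RNA was still present, with 268 ± 33.3 CPM before cycle 9 and 580.3 ± 67.7 CPM at cycle 14 against 1122 ± 55.1 and 1960.2 ± 404 CPM in WT. The stage change was higher in E(z)-KD for 390 genes (4.61%) and lower for 164 (1.94%). Among the higher ones were all 7 pair-rule genes, 6 of 7 gap genes, 5 of the 6 Hox genes tested, all 6 Bearded genes tested and 30 of the 52 germ layer markers. Early E(z)-KD counts were 3 or fewer for 4 pair-rule, 4 gap, 5 Hox and 5 Bearded genes and 22 markers. The rise of such genes in E(z)-KD was set by the filter, so these list counts are not read as independent results. opa had 2.29 ± 1.88 CPM before cycle 9 and 7.18 ± 7.28 CPM at cycle 14 in CBP-KD, against 141 ± 16.5 CPM at cycle 14 in E(z)-KD (difference 8.82, SE 1.44, adjusted p = 5.0e-04). Dtg, Traf4 and the noncoding gene CR43432 had 3 or fewer early counts in 1 or both genotypes. At cycle 14 they had 140.1 ± 11.6, 69.1 ± 11.8 and 72.2 ± 3.19 CPM in E(z)-KD and 4.82 ± 1.71, 6.95 ± 3.73 and 2.61 ± 1.13 CPM in CBP-KD. In the other direction cv-d fell in E(z)-KD from 8.36, 7.33 and 7.91 CPM to 1.13, 0.869 and 0.921 CPM, while CBP-KD had 0.941 ± 0.39 CPM and 5.46 ± 3.0 CPM (difference -5.52, SE 0.51, adjusted p = 1.8e-06). The early CBP-KD libraries held 165 to 528 CPM over the 432 genes named above as silent, against 39.3 to 76.0 CPM in E(z)-KD, and the part of this in the differences was not tested.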

How the data were processed

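Whole Drosophila embryos were hand-staged, and RNA-seq libraries were made with a stranded total RNA kit after rRNA removal. The authors aligned reads with STAR to dm6, keeping multimapping reads, and deposited a table of estimated counts per gene (expected counts), of which 2.90% are more than 0.01 from whole. The annotation, the step that made them fractional and the strand setting are not given in the sources used here, so overlapping and antisense genes cannot be told apart with certainty. ERCC spike-ins were added but none of their rows was used here (0 in the table), so all values are relative. Groups came from the labels. The 18 libraries held 6243486 to 18262569 counts, and replicates of every group differed by more than counting noise (chi-square test over genes), so each was used as 1 sample. Of 16680 gene names 12504 were current symbols, 3981 older symbols and 195 not matched. Coordinates and gene structures are from BDGP6.54, the same build as dm6.

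Counts were rounded, filtered by group (edgeR filterByExpr), scaled by TMM and fitted with edgeR 4.0.16 (limma 3.58.1, R 4.3.3) over all 18 libraries with 1 mean for each of 6 groups (12 residual degrees of freedom, common biological coefficient of variation 0.115). Stage changes and their differences between genotypes were tested by quasi-likelihood F tests with Benjamini-Hochberg adjustment over all 8467 genes, with SE taken as the size of the log2 fold change over the square root of F. Where the early group had 0 counts, folds were set against 3 counts in the early library with the highest such floor (0.202 CPM), and with 1 to 3 counts a ratio with its 95% counting interval was used. These intervals and floors cover counting error only. Counts were simulated for 8295 genes with 200 changed, all drawn from genes with at least 1 CPM in the early group. In these, 92 of 100 3-fold and 99 of 100 8-fold changes and 3 unchanged genes were called for the E(z)-KD stage change. The rates do not cover rises from below 1 CPM, such as those of the 824 higher genes with 3 or fewer early counts.

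Genes named in the text are E(z), nej, vfl and Trl, the 10 largest rises and falls by log2(CPM + 1) among called genes with at least 5 CPM and no overlap, the 5 with the highest CPM in each direction, the 8 largest differences from WT and 4 from CBP-KD in each direction, and members of the lists, of which every member could be named. Members, lists and rules were chosen with earlier results of these data known. The comparison of E(z)-KD with WT within a stage was added after values had been seen. Alternatives were DESeq2 1.42.0, RLE and library-size scaling, other filters and thresholds, fits of the compared groups alone, the replicate number as a block and leaving out each library.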

Additional observations from a re-analysis of the deposited data

Results flagged for a closer look

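The stage change differed between E(z)-KD and WT, by the test of the difference itself in edgeR, for 559 genes in the higher and 686 in the lower direction, and between E(z)-KD and CBP-KD for 390 and 164 genes. All values below are differences of log2 fold changes, E(z)-KD minus WT unless said otherwise, with adjusted p under 0.05.

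Among the largest differences from WT the higher ones were mus312 (4.53), zpg (3.72), CG42455 (6.23), Thor (3.77), CG6567 (3.68), CG5568 (3.13), Uch (3.11) and CG33156 (2.86). The call of CG42455 was lost in 10 of the 12 fits that left out 1 library (adjusted p up to 0.094) and with DESeq2 (adjusted p = 0.055). The lower ones were l(3)neo38 (-6.54), CG3036 (-5.30), CG32783 (-6.30), scb (-7.04), CG42342 (-6.91), btsz (-4.12), Cyp6a20 (-4.47) and sli (-4.10). For CG32783, 88.9% of the values are not whole.

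Of the maternal axis, germ plasm and clearance genes, bcd (1.37), osk (2.34), dl (1.70), spz (2.34), swa (1.34), gcl (1.15), vas (1.15), smg (1.23), cup (1.34, none of its values whole) and orb (1.85) fell less or rose more in E(z)-KD. So did the cell cycle genes stg (1.14), twe (1.05), grp (1.24) and mtrm (2.03), and also Hsp27 (1.95), gammaTub37C (1.66), CTCF (1.19) and E(z) (6.31), the depleted gene. Lower stage changes were found for ptc (-2.68), T48 (-1.08), rho (-2.06), vn (-1.44), peb (-2.72), Sry-alpha (-1.05), Tollo (-1.40), betaTub60D (-3.28) and the Polycomb genes Pc (-1.17), ph-p (-2.49) and Su(z)2 (-1.26). The call of ptc was lost in 10 of 12 and that of rho in 4 of 12 fits that left out 1 library, with adjusted p up to 0.085 and 0.106, both without E(z)-KD replicate 1 before cycle 9. Just under the fold rule were T48 without E(z)-KD replicate 3 at cycle 14 (-0.99), Sry-alpha without E(z)-KD replicate 2 before cycle 9 (-0.97) or replicate 1 at cycle 14 (-0.98), and twe without WT replicate 1 at cycle 14 (0.97).

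Against CBP-KD the stage change was higher for opa (8.82) and lower for cv-d (-5.52), CG30401 (-4.26), Dhc98D (-5.55) and tty (-3.28).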

How the results depend on the processing

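Of 169 named genes called in the E(z)-KD stage change, 163 kept their call in every alternative fit that tested them and 6 lost it in at least 1 (vfl, Trl, ush and gcl as given above, peb with 0.98 without replicate 3 at cycle 14, and betaTub60D when tested against a log2 fold change of 1). The filter of at least 10 counts in every library tested only 65 of the 169. None was called in the opposite direction. With at least 10 counts required in every library 199 genes were higher at cycle 14, since genes absent early drop out of that test, and 387 had a lower stage change than WT, with 107 higher and 39 lower than CBP-KD. Without a fold threshold 3957 genes were higher at cycle 14, 1982 and 1493 had a higher or lower stage change than WT, and 938 and 310 than CBP-KD. When the test itself was made against a log2 fold change of 1 (glmTreat), 233 and 263 genes differed from WT and 240 and 56 from CBP-KD. DESeq2 gave 1413 higher and 2118 lower genes in the stage change and shifted the median of all genes by 0.10, and under it the differences of stg, twe and gcl from WT were 0.99, 0.90 and 0.999, no longer past the rule. Leaving out each library in turn, or replicate 2 of both stages of E(z)-KD together, gave 1377 to 1433 higher and 2232 to 2270 lower genes, 524 to 626 and 621 to 684 differences from WT, 303 to 426 and 142 to 200 from CBP-KD, and log2 fold changes of E(z) of 4.24 to 4.99. The share of cycle 14 counts from genes under 1 CPM before cycle 9 was 2.43% to 2.73% with a library left out, and 2.26% with the limit set at 0.5 CPM.

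Uncalled genes near 0 changed sign. mthl1 was 0.00836 with DESeq2, 0.00836 with RLE scaling and 0.0320 with the filter of 10 counts. polo was -0.0285 without a filter and -0.0156 to 0.0184 with a library left out. pll was 0.0183 with the filter of 10 counts. vls was 0.0769 with DESeq2, 0.0779 with RLE scaling, 0.10 with that filter, 0.0166 with the compared groups alone and -0.0841 to 0.0216 with a library left out. A block for the replicate number gave 1345 higher and 2242 lower genes, 551 and 668 differences from WT and 368 and 157 from CBP-KD. Same-numbered E(z)-KD libraries of the 2 stages showed no shared deviation (correlations 0.045, -0.012 and 0.056), which cannot exclude a pairing by number. Same-numbered E(z)-KD and WT libraries had 0.170, 0.044 and 0.154 before cycle 9, against -0.168 to 0.0042 for different numbers. At cycle 14 same-numbered E(z)-KD and WT libraries had 0.057, -0.066 and -0.170. A batch shared by number was not tested beyond the block. A scaling to the ERCC spike-ins was not run. The cause of these changes was not tested except where stated. At this depth 3 counts are up to 0.202 CPM before cycle 9 and 0.213 CPM at cycle 14 in E(z)-KD, and levels below that cannot be told from 0.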
